A study of Mus musculus with 12 samples.

Results

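The 10 genes described here are myofibroblast and non-collagen matrix genes, chosen by name: Acta2, Tagln and Vim for the cytoskeleton, Pdgfra and Pdgfrb for the receptors, and Fn1, Tnc, Postn, Sparc and Lox for the matrix outside the collagens. All 10 were found once each among the 22053 rows of the expression table, and all 10 were among the 13148 genes that passed the filter on low values. On GRCm38, Fn1 spans chr1:71585520-71653200, Tnc chr4:63959785-64047015, Acta2 chr19:34241090-34255336 and Lox chr18:52516069-52529867, all on the minus strand, and Lox and Pdgfrb were the only pair of the 10 on the same chromosome.

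Myofibroblasts are the contractile, matrix-producing cells of a scarring kidney. They arise mainly from fibroblasts and pericytes of the interstitium, and they take on smooth muscle proteins such as α-smooth muscle actin. Platelet-derived growth factor (PDGF) receptors mark and drive these cells, and the cells lay down fibronectin and matricellular proteins, which are matrix proteins that signal to cells more than they bear load. Lysyl oxidase then cross-links the fibers.

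RNA was sequenced from whole kidneys of 12 wild-type C57BL/6 mice, with 1 library a mouse and 4 mice a group. CKD mice were fed a 0.2% adenine diet from 8 to 16 weeks of age. CKD+Fe mice were fed the same diet and were also injected i.p. each week with iron dextran at 0.5 g/kg, while control mice ate the matching diet without adenine and, like untreated CKD mice, were injected with PBS. The comparisons ask which of these genes moved with the disease and which moved with iron treatment. Mice are named by the numbers in their labels, and the values of a group are given in the order 012811, 012822, 042301 and 042310 for control, 021320, 022301, 110310 and 120102 for CKD, and 042702, 062910, 111710 and 122320 for CKD+Fe.

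Values are FPKM, a level scaled to transcript length and to the mapped reads of the mouse, so levels can be compared between genes. The depth in reads is unknown. A fold change is a difference of log2(FPKM + 1), with an adjusted p from limma over all 13148 genes. The added 1 shrinks the fold changes of genes near 1 FPKM, such as Postn, Lox and Tnc in control mice. In bulk tissue, more cells of a type and more RNA in each cell cannot be told apart. Kap, a kidney androgen-regulated gene of the proximal tubule, made up 11.2% of all FPKM in control and 0.643% in CKD. The sum of all FPKM was 607951 to 707843 in control and 503438 to 603556 in CKD mice. The median gene lay 0.50 higher on the log2 scale in CKD than in control, and how much of this came with Kap was not tested. Rescaling by the median of ratios brought this median to 0.01, so both scales are given where they differ. Mice 042301, 110310 and 042702 stood apart from their groups, with 442 to 805 genes that were 2-fold or more away from the other mice of the group, against 225 or fewer in the other 9.

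The stretch before the start of transcription was available from RefSeq (GRCm38.p6) for 6 of the 10 genes. It is shown for Tnc and Postn, which encode the matricellular proteins tenascin-C and periostin, because the values of Tnc did not overlap between CKD and CKD+Fe mice while those of Postn did. Another start is listed for Tnc and another for Postn, and the stretches before those are not shown. The Tnc stretch shown lies at chr4:64047016-64047265 on the minus strand and the Postn stretch shown at chr3:54360857-54361106 on the plus strand. Each is 250 bases long and written 5′ to 3′ up to the start.
Tnc: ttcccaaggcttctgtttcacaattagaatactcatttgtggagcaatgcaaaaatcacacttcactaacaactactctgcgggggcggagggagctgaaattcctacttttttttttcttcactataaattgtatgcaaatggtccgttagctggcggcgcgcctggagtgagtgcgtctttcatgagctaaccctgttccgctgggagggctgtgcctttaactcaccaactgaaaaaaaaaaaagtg
Postn: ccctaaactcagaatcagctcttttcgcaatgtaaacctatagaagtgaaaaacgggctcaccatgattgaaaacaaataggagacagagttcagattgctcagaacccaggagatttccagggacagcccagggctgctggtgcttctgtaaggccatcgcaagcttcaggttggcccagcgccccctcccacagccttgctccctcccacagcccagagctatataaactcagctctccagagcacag
The letters are all lower case because neither motif searched was found in them. These motifs were the CArG box read by serum response factor, written CC, then 6 letters A or T, then GG, and CATTCC, the core read by TEAD factors, each on both strands. The CArG box as spelled was in none of the stretches of the 6 genes and in 1.47% of all 32851 stretches of this length in the table. Forms that depart from this spelling were not searched, so its absence does not show that a gene lacks such a site. CATTCC was in the stretch of Acta2, as GGAATG 146 bases before the start, and in 12.6% of all stretches.

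By mean level in control kidneys Sparc stood highest of the 10 genes and Lox lowest. Sparc encodes a matricellular protein of collagen assembly and did not overlap Vim, the next in order, whereas Vim, Acta2 and Tagln overlapped each other in turn. Tagln did not overlap Pdgfrb below it. From Pdgfrb down through Fn1, Pdgfra, Tnc, Postn and Lox, each gene overlapped its neighbor. In CKD kidneys Fn1 had moved above Acta2 in the order and Lox above Postn. The neighbors Sparc and Vim, Acta2 and Pdgfrb, and Lox and Postn did not overlap in CKD, and the other neighbors did.

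All 10 genes rose in CKD kidneys compared with control. At an adjusted p under 0.05, 54.6% of all genes tested were higher in CKD, and 44.6% of all genes were higher with no overlap between the groups, so the count by itself sets the 10 genes little apart from the table. Another 13.3% of all genes were lower. The sizes differed more: the median fold change of the 10 genes was 2.09 on the log2 scale, compared with 0.50 over all genes. After the median-of-ratios rescaling 9 of the 10 rose, with 28.8% of all genes higher and 29.3% lower, and the median of the 10 was 1.54. Without the 3 mice that stood apart all 10 rose, with 59.5% of all genes higher.

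**Figure D1:**
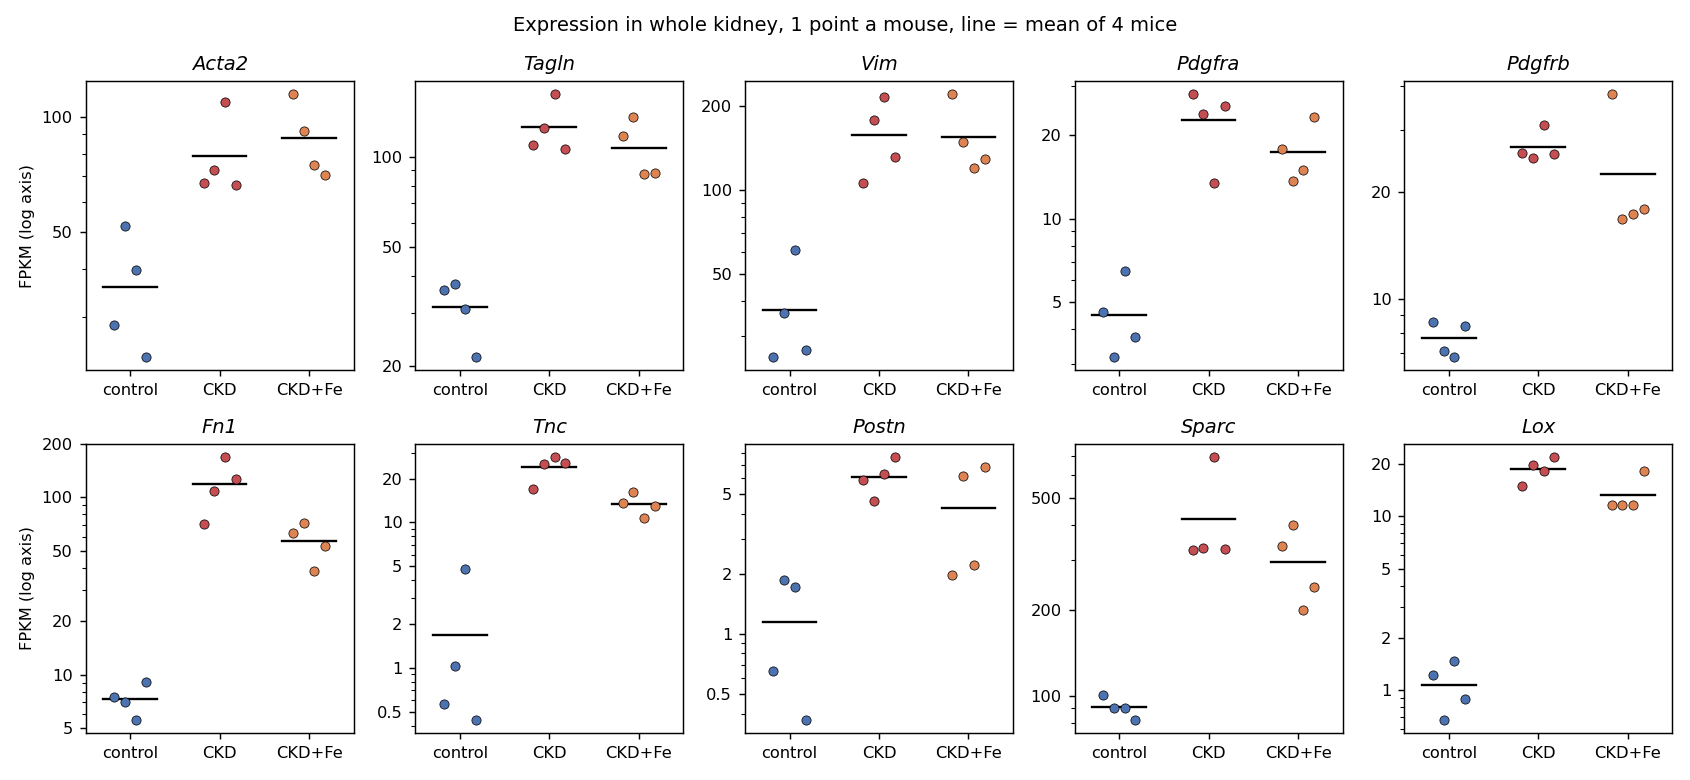
FPKM of the 10 genes in each mouse on a log axis, with 1 point a mouse and a line at the mean of 4 mice. Every CKD and CKD+Fe mouse lies above every control mouse for each gene, while CKD and CKD+Fe mice overlap for every gene except Tnc.

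Fn1, which encodes fibronectin, had the highest fold change of the 10 on this scale. Its levels were 7.50, 6.999, 5.58 and 9.11 FPKM in control mice, 70.9, 109, 169 and 127 FPKM in CKD mice, and 63.2, 71.3, 38.4 and 53.1 FPKM in CKD+Fe mice. The lowest CKD mouse was far above the highest control mouse, and the log2 fold change was 3.80 ± 0.25 (SE, n = 4 mice a group, limma adjusted p = 8.49e-08). In linear terms the mean was 16.3 times that of control. The place of Fn1 above Tnc changed with the processing: Tnc was at 3.69 and Fn1 at 3.601 with limma's array weights, at 3.80 and 3.51 without the 3 mice that stood apart, and at 4.32 and 3.96 with a pseudocount of 0.1, where Lox, at 4.04, was also above Fn1. Without control mouse 042301 alone Tnc was at 3.89, again above Fn1.

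Tnc and Lox followed. Tnc was at 0.559, 1.03, 4.74 and 0.439 FPKM in control, 16.8, 25.1, 28.2 and 25.6 in CKD and 13.6, 16.04, 10.7 and 12.96 in CKD+Fe mice. The log2 fold change in CKD was 3.44 ± 0.35 (limma adjusted p = 2.85e-06). The control mouse 042301, one of the 3 that stood apart, was well above the other 3 controls but still below all CKD mice. Lox, encoding lysyl oxidase, was at 1.23, 0.678, 1.47 and 0.887 FPKM in control, 14.8, 19.6, 18.1 and 21.9 in CKD and 11.6, 11.6, 11.5 and 18.3 in CKD+Fe mice. It rose by 3.25 ± 0.18 (limma adjusted p = 3.53e-08), and its CKD mean was 17.4 times the control mean.

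Sparc and Postn, the other matricellular genes, rose less. Sparc was at 100.2, 90.5, 90.2 and 82.1 FPKM in control, 327, 332, 696 and 329.9 in CKD and 338, 402, 199.9 and 241 in CKD+Fe mice. The CKD mouse 110310 was about 2 times as high as the other CKD mice, which lay close together. The log2 fold change was 2.12 ± 0.26 (limma adjusted p = 1.2e-05) and stayed between 1.85 and 2.22 with any 1 mouse left out. Postn was the lowest of the 10 in CKD, at 0.657, 1.85, 1.72 and 0.373 FPKM in control, 5.86, 4.62, 6.28 and 7.68 in CKD and 1.96, 6.14, 2.21 and 6.81 in CKD+Fe mice. It rose by 1.78 ± 0.33 in CKD (limma adjusted p = 0.000369). As a ratio of means, the CKD level was 5.31 times that of control for Postn and 4.64 times for Sparc. CKD+Fe mice fell into a low pair just above the highest control and a high pair within the CKD range.

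Both PDGF receptors rose. Pdgfra, which encodes the receptor α chain of interstitial fibroblasts, was at 4.62, 3.18, 6.47 and 3.75 FPKM in control, 28.0, 23.7, 13.4 and 25.3 in CKD and 17.8, 13.7, 15.0 and 23.2 in CKD+Fe mice. Mouse 110310, which was highest of the CKD mice for 7 of the 10 genes, was lowest for Pdgfra. Pdgfrb, which encodes the β chain of pericytes and mesangial cells, was at 8.61, 7.10, 6.83 and 8.38 FPKM in control, 25.8, 25.04, 31.0 and 25.7 in CKD and 37.9, 16.8, 17.4 and 17.9 in CKD+Fe mice. The log2 fold changes in CKD were 2.09 ± 0.24 for Pdgfra (limma adjusted p = 8.06e-06) and 1.68 ± 0.22 for Pdgfrb (limma adjusted p = 1.89e-05). The ratio of Pdgfra to Pdgfrb within a mouse differed between CKD and control by 0.52 on the log2 scale, which was within the spread between mice (exact permutation test, p = 0.314).

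The cytoskeletal genes rose by unequal amounts. Vim, encoding the mesenchymal filament vimentin, was at 25.2, 36.1, 61.1 and 26.7 FPKM in control, 106, 178, 216 and 131 in CKD and 221, 149, 120.2 and 129 in CKD+Fe mice, and rose by 2.09 ± 0.29 in CKD (limma adjusted p = 3.44e-05). Tagln, which encodes the actin-binding smooth muscle protein SM22α, was at 35.7, 37.4, 31.0 and 21.4 FPKM in control, 109, 125, 162 and 106 in CKD and 117, 135, 87.3 and 87.9 in CKD+Fe mice. The log2 fold change was 1.97 ± 0.20 (limma adjusted p = 3.35e-06), and the groups were far apart.

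Acta2, which encodes α-smooth muscle actin, the textbook myofibroblast marker, had the lowest fold change of the 10, except after quantile normalization, where Postn was at 0.96 and Acta2 at 1.06. It was at 28.5, 51.8, 39.7 and 23.6 FPKM in control, 67.2, 72.5, 109 and 66.3 in CKD and 114, 91.9, 74.6 and 70.6 in CKD+Fe mice. The CKD mean was 2.19 times the control mean, and the log2 fold change was 1.14 ± 0.24 (limma adjusted p = 0.000935). After the median-of-ratios rescaling it was 0.58 ± 0.25 and missed the threshold (limma adjusted p = 0.0588), whereas the other 9 genes kept values from 1.15 for Pdgfrb to 3.27 for Fn1. Between them were Tagln at 1.41, Postn at 1.42, Vim at 1.53, Sparc at 1.55, Pdgfra at 1.58, Lox at 2.86 and Tnc at 3.05. Reads can be shared among actin genes of near-identical coding sequence. The muscle actin genes Actg2 and Actc1 averaged at most 1.16 FPKM and 0.0972 FPKM in any group. No values are given here for Acta1, another actin paralog. The cytoplasmic actin genes were far above Acta2 and also rose in CKD: Actb from 671.8 ± 261.4 to 1245 ± 378 FPKM (log2 fold change 0.91 ± 0.28, limma adjusted p = 0.0107) and Actg1 from 193 ± 36.5 to 338 ± 66.6 FPKM (0.80 ± 0.22, limma adjusted p = 0.00529). Neither passed after the median-of-ratios rescaling, at 0.33 (limma adjusted p = 0.322) and 0.23 (limma adjusted p = 0.419). Both passed after quantile normalization, at 1.145 (limma adjusted p = 0.00039) and 1.148 (limma adjusted p = 0.000574). Without the 3 mice that stood apart both passed as well, at 0.98 (limma adjusted p = 0.000782) and 0.55 (limma adjusted p = 0.0147). How many reads these genes shared with Acta2 was not tested, so the level of Acta2 is uncertain to that extent.

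**Figure D2:**
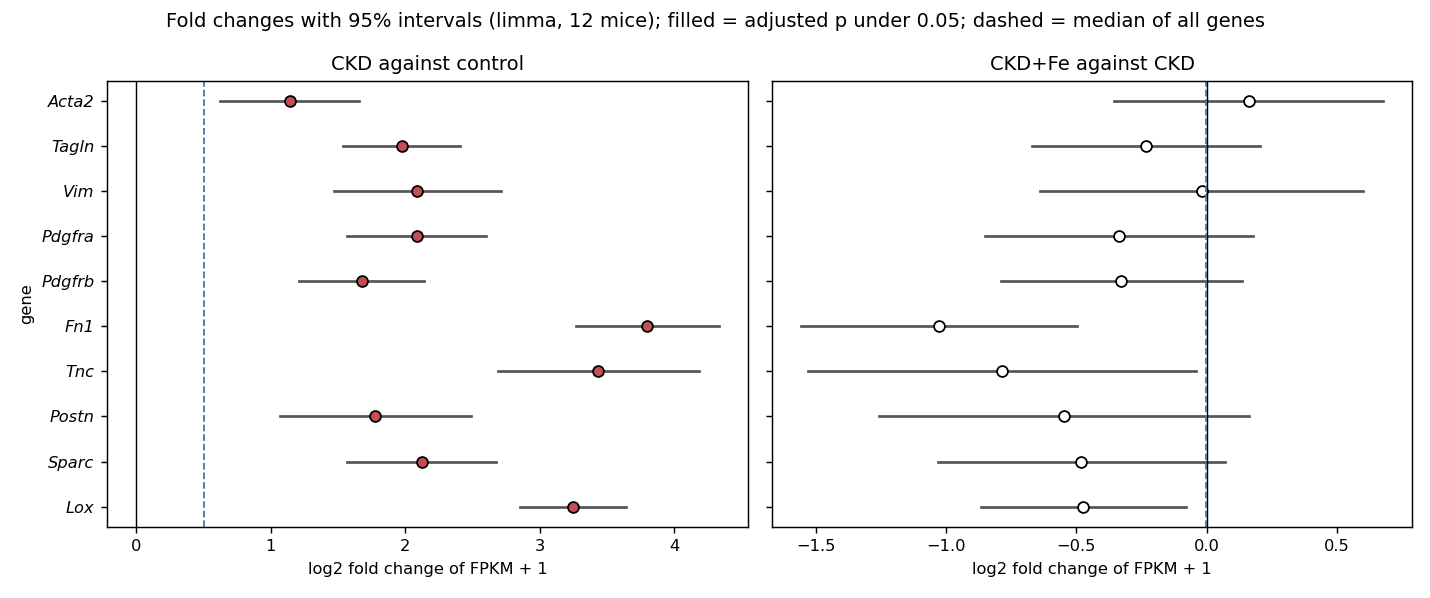
Log2 fold changes of FPKM + 1 for the 10 genes with 95% intervals from limma over 12 mice, filled where the adjusted p was under 0.05, with the median of all genes as a dashed line. All 10 intervals lie above 0 in CKD compared with control, from 1.14 for Acta2 to 3.80 for Fn1, whereas with iron only those of Fn1, Tnc and Lox leave out 0.

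A ratio of a pair of genes within a mouse does not depend on scaling between mice. Of 6 such ratios, 4 separated CKD from control mice with no overlap. All 4 hold Acta2, so they are not separate results. The share of all pairs of genes that separate in this way was not computed, so the count has no background beside it. The ratio of Fn1 to Acta2 was 0.263, 0.135, 0.141 and 0.386 in control mice and 1.06, 1.502, 1.55 and 1.91 in CKD mice, a log2 difference of 2.81. The ratio of Tagln to Acta2 was higher in CKD by 0.84 and that of Vim to Acta2 by 0.96. Acta2 was higher relative to Myh11, the smooth muscle myosin heavy chain of vessel walls, by 1.57. For each of these 4 the exact permutation test gave p = 0.0286, the smallest that 4 mice against 4 allow, and p = 0.0571 when adjusted over the 12 ratio comparisons, which missed 0.05. No ratio could pass this adjustment alone, because the smallest exact p is 0.0286. The ratio of Postn to Sparc differed by 0.54 (exact permutation p = 0.4).

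**Figure D3:**
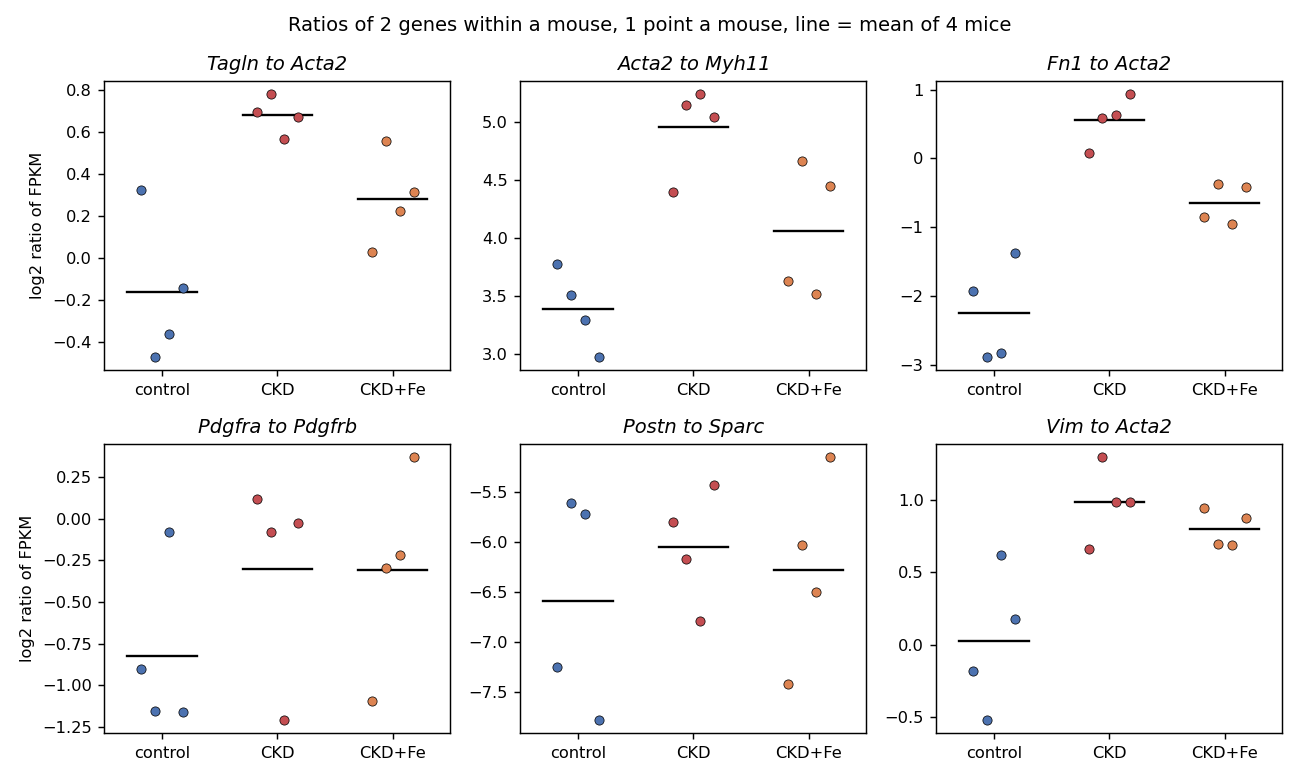
Log2 ratios of 6 pairs of genes within each mouse, with 1 point a mouse and a line at the mean of 4 mice. Fn1 to Acta2 lies from 0.08 to 0.93 in CKD mice, above all control mice and above all CKD+Fe mice, which lie from −0.96 to −0.37.

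With iron treatment, no gene of the 10 passed the adjusted threshold in either direction. Over all genes tested, 0.0% were called lower and 0.00761% higher in CKD+Fe compared with CKD, and 2.73% were lower and 3.28% higher at an unadjusted p under 0.05. Fold changes were negative for 9 of the 10 genes, with Acta2 the exception, compared with 50.1% of all genes, and their median was −0.41, compared with −0.001 over all genes. The 3 genes with an unadjusted p under 0.05 were Fn1, Tnc and Lox. This comparison uses the same 4 CKD mice as that of CKD with control.

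Fn1 had a log2 difference of −1.03 between CKD+Fe and CKD mice (95% interval −1.56 to −0.50, unadjusted p = 0.00101, limma adjusted p = 0.348). The mean was 56.5 ± 14.2 FPKM in CKD+Fe and 119 ± 40.6 FPKM in CKD mice (SD, n = 4). The groups overlapped only by the highest CKD+Fe mouse, 062910, and the lowest CKD mouse, 021320, and the exact permutation p was 0.0571. With limma's array weights, which give less weight to mice that stand apart, Fn1 passed the threshold at −1.02 (limma adjusted p = 0.0475), with 0.426% of all genes called lower. Without the 3 mice that stood apart it was −0.90 (limma adjusted p = 0.092). With any 1 mouse left out the value ran from −1.25 to −0.84 and the limma adjusted p from 0.0985 to 0.999.

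Tnc was the only gene of the 10 with no overlap between CKD+Fe and CKD mice, where 1.08% of all genes were lower without overlap. Its log2 difference was −0.79 (95% interval −1.53 to −0.04, limma adjusted p = 0.808, exact permutation p = 0.0286). Lox differed by −0.47 (95% interval −0.87 to −0.08, limma adjusted p = 0.734). Of its 4 CKD+Fe mice, 3 lay at 11.5 to 11.6 FPKM, below every CKD mouse, and mouse 122320 at 18.3 FPKM lay within the CKD range.

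Of the remaining matrix genes, Postn differed by −0.55 (95% interval −1.26 to 0.16) and Sparc by −0.48 (−1.03 to 0.07). The difference of Sparc was −0.21 without CKD mouse 110310 and that of Postn −0.32 without CKD+Fe mouse 042702. For the receptors, Pdgfra differed by −0.34 (−0.85 to 0.18) and Pdgfrb by −0.33 (−0.79 to 0.14). The Pdgfra difference ran from −0.22 without CKD mouse 021320 to −0.56 without CKD mouse 110310, and was −0.58 without the 3 mice that stood apart. Of the CKD+Fe mice, 3 had 16.8 to 17.9 FPKM of Pdgfrb, all below the CKD mice, while mouse 042702 was above all of them at 37.9 FPKM. Without mouse 042702 the Pdgfrb difference was −0.60 (limma adjusted p = 0.1).

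Of the cytoskeletal genes, Acta2 differed with iron by 0.16 (95% interval −0.36 to 0.68), Vim by −0.02 (−0.64 to 0.60) and Tagln by −0.23 (−0.67 to 0.20). These intervals span 0, and with 4 mice a group differences of any size within them remain possible. The sign of Vim turned to 0.15 when CKD mouse 110310 was left out. Without that mouse Acta2 was at 0.33 and Tagln at −0.10. Acta2 was at 0.03 without CKD+Fe mouse 042702 and Tagln at −0.35 without CKD+Fe mouse 062910.

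The within-mouse ratios with iron are built from the same values as the single genes, so they are no separate support. Their share among all pairs of genes was not computed. Fn1 to Acta2 was 0.552, 0.775, 0.515 and 0.752 in CKD+Fe mice, below all CKD mice, a log2 difference of −1.21 (exact permutation p = 0.0286, adjusted 0.0571). Tagln to Acta2 was likewise lower without overlap, by 0.40 on the log2 scale, with the same p. Both missed 0.05 after adjustment, and the log2 differences kept their sign with any 1 mouse left out. Acta2 to Myh11 differed by −0.90 with overlap (exact permutation p = 0.0857), and Vim to Acta2 by −0.18 (exact permutation p = 0.2).

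Compared with control, all 10 genes were also higher in CKD+Fe mice, with 54.4% of all genes called higher and, for genes without overlap, 50.3%. The log2 fold changes ran from 1.23 for Postn and 1.304 for Acta2 to 2.77 for Fn1 and 2.78 for Lox, and the median of the 10 was 1.75. The place of Postn below Acta2 holds on this scale only, because the ratio of means was 3.72 for Postn and 2.45 for Acta2. After the median-of-ratios rescaling all 10 passed, with a median of 1.22, and 27.7% of all genes were higher and 27.5% lower. Acta2 was then at 0.75 (limma adjusted p = 0.02) and Postn at 0.895 (limma adjusted p = 0.0423). After quantile normalization 9 of the 10 passed, with 19.8% of all genes higher and Postn at 0.45 (limma adjusted p = 0.325). This comparison uses the same control mice as that of CKD with control.

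Other genes of the same functions were counted in 5 lists with 115 genes tested in all. Of the 45 genes for matrix outside the collagens and its processing, 37 rose and 1 fell in CKD, with a median of 1.70. Over all genes tested, 54.6% were higher and 13.3% lower in CKD, with a median of 0.50. Spp1, which encodes osteopontin, rose the most, from 521 ± 114 FPKM to 15130 ± 3614 FPKM (log2 fold change 4.85 ± 0.26, limma adjusted p = 2.94e-08). Ltbp2, a fibrillin-associated binding protein, rose by 3.79, and Fmod, which encodes the collagen-binding proteoglycan fibromodulin, fell by 0.66. After the median-of-ratios rescaling 34 rose and 2 fell, with 28.8% of all genes higher and 29.3% lower. After quantile normalization, where 23.3% of all genes were higher and 25.6% lower, 31 rose and 4 fell.

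Of the 22 contractile and smooth muscle genes tested, 17 rose and none fell, with a median of 0.98. Of all genes tested 54.6% were higher in CKD, with a median of 0.50. The counts became 10 higher and 1 lower after the median-of-ratios rescaling, where 28.8% of all genes were higher and 29.3% lower. After quantile normalization 13 rose and 4 fell, with 23.3% of all genes higher and 25.6% lower. Flna, encoding the actin cross-linker filamin A, was at 2.60 and Actn1, encoding α-actinin-1, at 2.21, and both are expressed by many cell types. Genes of smooth muscle itself were on both sides of the threshold. Des, which encodes the muscle filament desmin, rose by 1.21 (limma adjusted p = 0.00066), Smtn, smoothelin, by 0.77 (limma adjusted p = 0.0108) and Myl9, a myosin light chain, by 0.68 (limma adjusted p = 0.0208). Myh11 averaged 3.43 ± 1.10 FPKM in control and 2.53 ± 0.60 FPKM in CKD and did not pass (log2 fold change −0.31, limma adjusted p = 0.33), nor did Actg2, smooth muscle γ-actin, at −0.39 and Cnn1, calponin 1, at −0.25. Cnn1, Des, Smtn and Myl9 were named after their values were seen. Myh11 was called lower after the median-of-ratios rescaling, at −0.74 (limma adjusted p = 0.0263), where Smtn and Myl9 no longer passed. After quantile normalization Myh11, at −1.10 (limma adjusted p = 0.0035), Cnn1, at −0.99 (limma adjusted p = 0.0099), and Actg2, at −0.99 (limma adjusted p = 0.0291), were all called lower, and Des and Smtn no longer passed.

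Of 23 fibroblast and pericyte markers, 19 rose and 2 fell, with a median of 1.11, where 54.6% of all genes rose and 13.3% fell. Pdpn, encoding the membrane glycoprotein podoplanin, rose by 3.26 and Thy1, a surface protein of fibroblasts and lymphocytes, by 2.76. The 2 that fell were Meox1, a mesoderm homeobox gene, by 0.79 and Kcnj8, which encodes a potassium channel subunit of pericytes, by 0.61. After the median-of-ratios rescaling 15 rose and 3 fell, with 28.8% of all genes higher and 29.3% lower. After quantile normalization 10 rose and 3 fell, with a median of 0.40, where 23.3% of all genes were higher and 25.6% lower.

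All 4 PDGF ligand genes and the receptor-like gene Pdgfrl rose in CKD, with a median of 1.41, as did 54.6% of all genes tested. Pdgfrl rose by 2.101 and Pdgfb, whose product binds both receptor chains, by 1.72. Pdgfb went from 10.7 ± 3.67 FPKM in control to 39.5 ± 20.2 FPKM in CKD. Of 20 integrins and other matrix receptors, 19 rose and none fell, with a median of 1.33, led by Cd44, the hyaluronan receptor, at 3.71 and Sdc1, the proteoglycan syndecan-1, at 3.02. After the median-of-ratios rescaling 4 of the 5 PDGF genes and 15 of the 20 receptors rose, and after quantile normalization 4 and 16. The shares of all genes higher were then 28.8% and 23.3%.

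**Figure D4:**
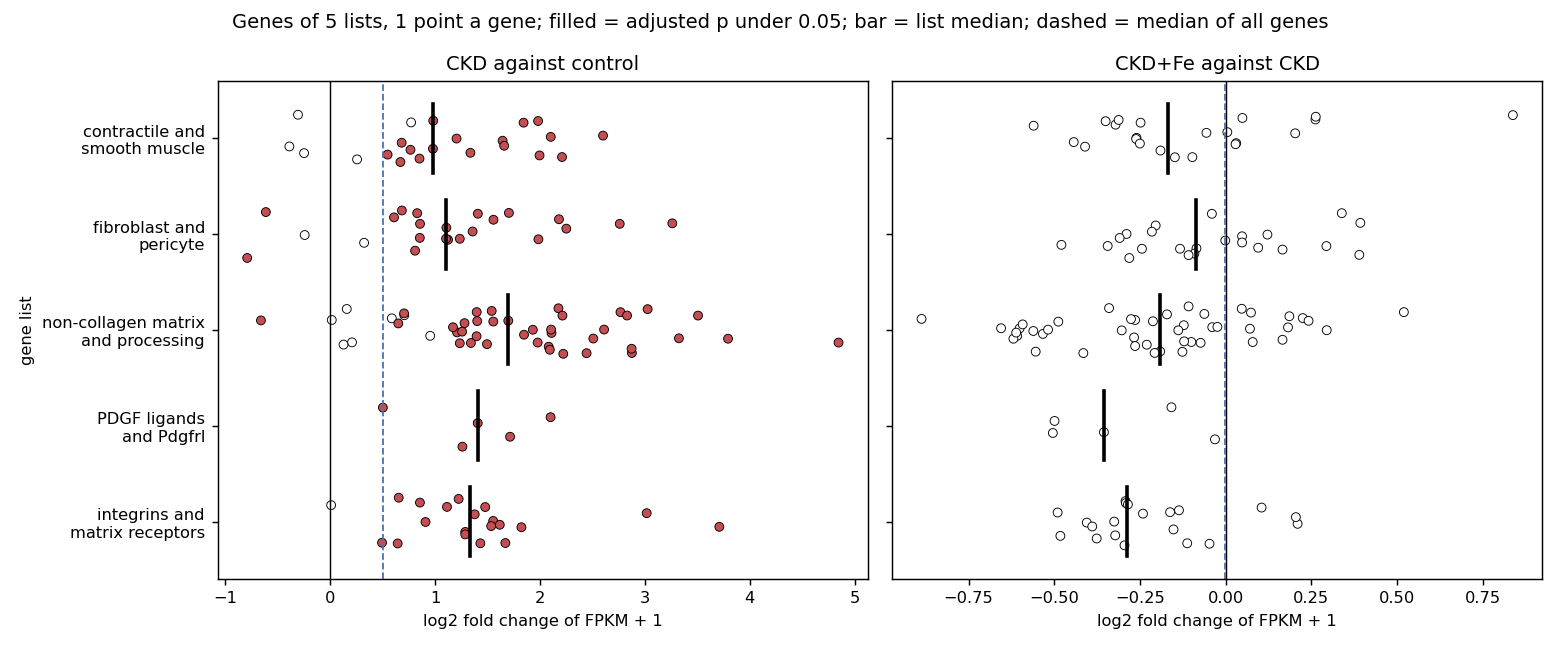
Log2 fold changes of FPKM + 1 for genes of the 5 lists, 1 point a gene, filled where the adjusted p was under 0.05, with a bar at the median of each list and a dashed line at the median of all genes. List medians run from 0.98 to 1.70 in CKD compared with control and from −0.36 to −0.09 in CKD+Fe compared with CKD, where no point is filled.

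With iron none of the 115 genes passed the adjusted threshold. List medians were −0.19 for the matrix genes, −0.17 for contractile genes, −0.09 for fibroblast and pericyte markers, −0.36 for the PDGF genes and −0.29 for matrix receptors, compared with −0.001 over all genes. At an unadjusted p under 0.05, 11 of the 45 matrix genes were lower and none higher, compared with 2.73% of all genes lower. Of the 22 contractile genes 4 were lower and 1 higher, of the 20 matrix receptors 4 were lower, of the 5 PDGF genes 1 was lower, and of the 23 fibroblast and pericyte markers none was on either side. Without overlap between groups 6 of the 45 matrix genes were lower, compared with 1.08% of all genes, and no gene of the other 4 lists was. The 3 lowest of these were Bgn, which encodes the proteoglycan biglycan, at −0.62 ± 0.20 (limma adjusted p = 0.555), Lamb3, a chain of epithelial laminin, at −0.61, and Loxl2, a lysyl oxidase relative, at −0.59. Bgn averaged 579.5 ± 119.5 FPKM in CKD and 379 ± 85.1 in CKD+Fe mice. Myh11 was the only list gene that was higher without overlap, as were 1.35% of all genes tested, at 5.67 ± 2.82 FPKM in CKD+Fe mice (log2 fold change 0.84, unadjusted p = 0.00826, limma adjusted p = 0.544).

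The 3 genes outside the 10 with the profile most like that of Acta2 over the 12 mice were Grasp, Rhbdf1 and Gar1, with a mean absolute difference of 0.16 to 0.17 per mouse after each gene was centered on its own mean of log2(FPKM + 1). For Fn1 they were Cfi, Aldh1a2 and Clu, at 0.20 to 0.26. Cfi encodes complement factor I, Aldh1a2 a retinoic acid synthase and Clu the secreted chaperone clusterin. Their log2 differences with iron were −1.01, −0.78 and −0.54, and none passed the adjusted threshold (limma adjusted p of 0.143 or more). The genes were picked for likeness to Fn1 over mice of all 3 groups. Differences in the same direction as that of Fn1 therefore follow from the choice and are no separate result.

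Markers of other cells also moved with the groups, while 54.6% of all genes tested were higher in CKD and 13.3% lower. All 10 macrophage markers rose in CKD, and their summed level was 85.3 to 194 FPKM in control, 1454 to 2970 in CKD and 1281 to 2988 in CKD+Fe mice. All 9 tubule injury markers rose in CKD as well, and their sum was 149.7 to 343 FPKM in control, 1615 to 2726 in CKD and 1178 to 1899 in CKD+Fe mice. With iron all 9 had negative fold changes, compared with 50.1% of all genes. At an unadjusted p under 0.05 by limma, 4 of the 9 were lower, compared with 2.73% of all genes. None passed the adjusted threshold. Both injured epithelial cells and macrophages can express Fn1 and Vim, and the part of these cells in the results was not tested.

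Other markers did not follow the 10 genes. Of 8 endothelial markers none rose and 1, Kdr, fell in CKD, where 54.6% of all genes rose and 13.3% fell. After the median-of-ratios rescaling 7 were lower, with 29.3% of all genes lower. The summed endothelial markers were 182 to 403 FPKM in control and 138 to 234 FPKM in CKD mice. Of 7 tested urothelium and papilla markers none passed in either direction, and their sum varied from 1.92 to 142.5 FPKM among control mice. Of the markers in that list, Upk2, Upk3a and Krt14 were listed at 0 in at least 1 mouse. Nephron markers divided: of 10 tested, 4 fell and 1 rose in CKD, with a median of 0.44. The 4 that fell were Kap, Slc34a1 and Lrp2 of the proximal tubule and Aqp2 of the collecting duct, and the 1 that rose was Atp6v1b1, a proton pump subunit of intercalated cells. These were named after their values were seen. The counts were 4 lower and none higher after the median-of-ratios rescaling, and after quantile normalization 3 fell and 2 rose. The summed nephron markers, at 68450 to 94200 FPKM in control and 3930 to 10560 FPKM in CKD mice, were mostly Kap, which averaged 73020 FPKM in control and 3585 FPKM in CKD, so the sum does not stand for the list.

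**Figure D5:**
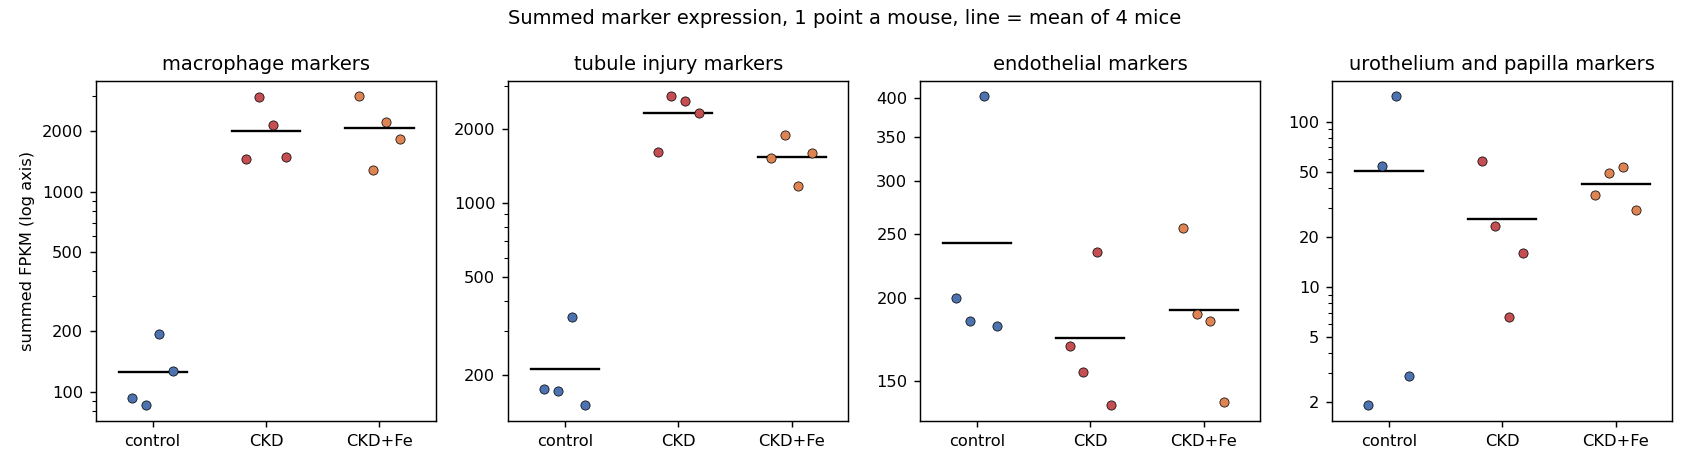
Summed FPKM of 4 marker lists in each mouse on log axes, with 1 point a mouse and a line at the mean of 4 mice. Macrophage and tubule injury sums lie higher in every CKD and CKD+Fe mouse than in every control mouse, while endothelial and urothelium and papilla sums overlap among the 3 groups.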

How the data were processed

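RNA from whole kidney of 12 mice was sequenced, 4 mice in each of 3 groups taken from the deposited labels. The authors deposited FPKM values, 1 per gene and mouse, for 22053 rows. The submitters' processing notes list bcl2fastq 2.19, STAR 2.5.2, Cufflinks 2.1.1 and GRCm38, without the role of each, and the annotation is not given in the sources used here. Of the rows with an identifier in GENCODE M21, 99.9% overlapped that gene, so positions are those of the files on GRCm38. FPKM are scaled to the reads of each mouse, so a change in abundant transcripts shifts all others, and read depth is unknown, so no counting error could be given. The study tested counts with DESeq2, and FPKM are not counts, so another test was used here. Failed estimates, 30 values in 17 genes by the file's status column, were left out.

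A linear model of log2(FPKM + 1) was fitted by limma 3.58.1 (R 4.3.3; eBayes with a variance trend) to all 12 mice together. It covered the 13148 genes that reached 1 FPKM in 4 or more mice. Two-sided p values were adjusted across these genes (Benjamini-Hochberg) and called under 0.05. The fit was tested on simulated data. Single genes and ratios were also compared by a two-sided exact permutation test over the 70 arrangements of 4 mice against 4, whose smallest p is 0.0286. Labels give no litter or batch, and p values measure the spread between mice. Named beyond the 10 genes were the 2 highest called genes of each list in CKD and up to 2 that were called lower there. With iron, up to 3 lowest and up to 3 highest list genes whose groups did not overlap were named. The 3 genes most like Acta2 and Fn1 and actin paralogs of Acta2 were named as well. The genes, lists, motifs and alternatives were chosen with earlier results of these data known. Alternatives were a pseudocount of 0.1, no filter, a mean of at least 5 FPKM, median-of-ratios rescaling, quantile normalization, each pair of groups alone, array weights, no variance trend, a threshold of 0.5, each mouse left out, and the 3 mice that stood apart left out.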

Additional observations from a re-analysis of the deposited data

Results flagged for a closer look

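Each of the 10 genes was checked in each group for a mouse far from the other 3. This meant a gap to the nearest mouse of more than 0.829 of the group's range in log2(FPKM + 1), not in FPKM. Of the 30 groups checked 4 had such a mouse, where chance gives about 1 in 20, or 1.5 of 30. The mouse was the highest of its group each time. In CKD, mouse 110310 had 696 FPKM of Sparc and 31.0 FPKM of Pdgfrb. In CKD+Fe, mouse 042702 had 37.9 FPKM of Pdgfrb and mouse 122320 had 18.3 FPKM of Lox. Mice 110310 and 042702 are among the 3 that stood apart over all genes. Without the 3, Pdgfrb differed between CKD+Fe and CKD by −0.53 (limma adjusted p = 0.0507), Sparc by −0.30 (limma adjusted p = 0.46) and Lox by −0.43 (limma adjusted p = 0.259). What set these mice apart was not tested.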

How the results depend on the processing

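All 10 genes were called higher in CKD under every alternative that tested them, except Acta2 after the median-of-ratios rescaling (0.58, limma adjusted p = 0.0588). Postn was not tested with the filter at a mean of 5 FPKM. In CKD+Fe compared with control all tested genes of the 10 were called under every alternative except Postn after quantile normalization. With iron 1 of the 10, Fn1, was called lower with array weights and 1 at an adjusted p under 0.5, and none under the other alternatives. With single mice left out the counts of the 10 called were 10 and 10 higher compared with control and 0 with iron. The list genes called higher were 97 in CKD, 93 to 99 with single mice left out, and 96 in CKD+Fe compared with control, 91 to 98 with single mice left out and 63 after quantile normalization. Of all genes tested, 54.6% were higher in CKD. In CKD+Fe compared with control 54.4% were higher, and 19.8% after quantile normalization. The list genes called lower in CKD were 3, also with each mouse left out, 0 with the filter at a mean of 5 FPKM, 6 after the median-of-ratios rescaling, 11 after quantile normalization and 7 at an adjusted p under 0.5. In CKD+Fe compared with control they were 2, also with each mouse left out, and 0, 6, 10 and 5 under those alternatives and 4 with array weights. With iron they were 0, also with each mouse left out, 3 with array weights, 2 without the 3 mice that stood apart (Cald1 and Sdc1) and 2 at an adjusted p under 0.5. The ratios were rerun only with each mouse left out and with a pseudocount of 1, and none of the 12 comparisons passed an adjusted 0.05. With a smallest exact permutation p of 0.0286, no ratio could pass this adjustment alone, so the misses say little about any 1 ratio. The cause of these shifts was not tested.

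Values that turned sign had been within the spread between mice. With single mice left out, Vim with iron ran from −0.20 to 0.15, Pdgfra to Pdgfrb with iron from −0.31 to 0.25 and Postn to Sparc with iron from −0.61 to 0.16. Vim with iron became 0.06 and 0.15 without CKD mice 022301 and 110310, and 0.09 and 0.05 without CKD+Fe mice 111710 and 122320. Pdgfra to Pdgfrb with iron became 0.13, 0.06 and 0.08 without CKD mice 021320, 022301 and 120102, and 0.25 without CKD+Fe mouse 042702. Postn to Sparc with iron became 0.16 without CKD+Fe mouse 042702, and in CKD −0.35 with a pseudocount of 1. No paired analysis was possible because the labels give the groups no shared replicate numbers.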
